A study of Mus musculus with 4 samples.

Results

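The carbonic anhydrase genes described here are the 10 genes Car2, Car3, Car4, Car7, Car8, Car10, Car11, Car12, Car13 and Car14, chosen by their symbol from the 22609 genes counted. The family was selected on its measured log2 fold changes between the genotypes, that of Car14 above all, so the fold changes and p-values below describe these libraries and are not independent evidence. RNA was sequenced from the hippocampus of ovariectomized C57BL/6 mice carrying estradiol (E2) mini pumps, killed 24 h after global cerebral ischemia (GCI), a temporary stop of blood flow to the whole brain. The FLOXED group holds 2 libraries from mice labelled FLOXED, the control genotype. The PELP1 FBKO group holds 2 libraries from mice lacking PELP1, a co-regulator of the estrogen receptor, in the forebrain. Every library had both the ischemia and the estradiol, so differences that existed before either cannot be told apart from later ones. The sources used here do not name the Cre driver, the part of Pelp1 removed, the age of the mice or whether libraries came from separate or pooled animals. P-values therefore measure only the spread between these libraries, which may be technical.

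Carbonic anhydrases are zinc enzymes that interconvert carbon dioxide and water with bicarbonate and a proton. In the brain they buffer the pH shifts that follow neuronal firing and loss of blood flow, and they supply the bicarbonate that leaves neurons through GABA receptor channels. Car2, Car3, Car7 and Car13 encode cytosolic enzymes, while Car4, Car12 and Car14 encode enzymes held at the cell surface with the active site outside the cell. Car8, Car10 and Car11 encode carbonic anhydrase-related proteins, which keep the fold of the enzyme but lack its activity.

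Libraries held between 17524594 and 22447658 reads assigned to genes, and levels are given as CPM, reads scaled to library size, after TMM scaling, an adjustment for library composition. Pelp1, the targeted gene, stood at 26.7 and 26.3 CPM in the FLOXED libraries, against 18.0 and 17.3 CPM in those of PELP1 FBKO. Its log2 fold change, PELP1 FBKO minus FLOXED throughout, was -0.59 (SE 0.149; edgeR quasi-likelihood, adjusted p = 0.130). Markers of hippocampal excitatory neurons summed to between 6839 and 9275 CPM, and 4 cerebellar markers to between 4.90 and 10.7 CPM. In bulk tissue, fewer cells of a type and less RNA per cell cannot be told apart.

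Promoter sequences are shown for Car14 and Car7, the members that differed most between the genotypes, in opposite directions. RefSeq promoter entries (GRCm38.p6) matched 6 of the 10 members, and those of Car2, Car3, Car8 and Car13 were missing. Each sequence is the 250 bases before a transcription start, 5′ to 3′ on the strand of the gene, in lower case. Capitals mark matches on either strand to AGGTCA (the estrogen receptor half-site), ACGTG (the core bound by hypoxia-inducible factors), GGGCGG (the GC box) or TATAAA (the TATA box). Car14 is shown at chr3:95904686-95904935, minus strand. Car7 has 3 entries, and the second along the chromosome is shown, at chr8:104540557-104540806, plus strand, because it holds the most matches of the 3.
Car14: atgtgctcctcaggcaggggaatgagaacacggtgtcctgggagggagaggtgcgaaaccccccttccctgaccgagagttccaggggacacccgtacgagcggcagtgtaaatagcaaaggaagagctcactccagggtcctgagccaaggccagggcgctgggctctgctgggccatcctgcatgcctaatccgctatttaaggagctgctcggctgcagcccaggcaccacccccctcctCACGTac
Car7: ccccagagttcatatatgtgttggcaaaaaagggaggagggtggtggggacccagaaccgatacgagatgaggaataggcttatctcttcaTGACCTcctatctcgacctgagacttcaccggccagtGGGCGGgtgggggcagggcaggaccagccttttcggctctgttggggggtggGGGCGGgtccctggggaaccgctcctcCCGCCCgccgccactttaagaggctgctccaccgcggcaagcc
In the Car14 sequence 1 match was found, to ACGTG on the reverse strand, starting 7 bases before the start. The Car7 sequence held 1 match to AGGTCA on the reverse strand, 159 bases before the start, and 3 to GGGCGG. Of the other Car7 entries, the first held 0 matches and the third 1, to GGGCGG. No match overlapped another motif. Over 32851 promoter windows of the same length, 14.0% held AGGTCA, 16.6% ACGTG, 32.7% GGGCGG and 12.4% TATAAA, so such matches are common. A match is a description of the letters and not a measured site.

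Per kilobase of the longest annotated transcript, which allows levels to be compared between genes, the family spanned a wide range. Car2 was highest at 140 CPM per kb (SD 24.7 over the 4 libraries), followed by Car11 at 79.5 (SD 12.4) and Car4 at 29.4 (SD 4.07). Car10 (15.1 CPM per kb), Car12 (9.62), Car7 (8.52) and Car14 (5.13) formed the middle of the order. Car8 (1.73), Car13 (0.590) and Car3 (0.199) were lowest. Neighbours in this order did not overlap across the 4 libraries, except that Car7 overlapped both Car12 above it and Car14 below it. Some gaps were narrow. The lowest library of Car13 was at 0.355 against 0.350 for the highest of Car3, and that of Car14 at 2.27 against 2.14 for Car8. For Car7 against Car12 and Car14, the order differed between the libraries of the 2 genotypes. In FLOXED, Car7 stood at 11.7 and 10.7 CPM per kb against 2.57 and 2.27 for Car14. In PELP1 FBKO, Car7 stood at 6.23 and 5.52 CPM per kb against 8.09 and 7.59 for Car14, so the order of these genes relative to each other turned.

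**Figure D1:**
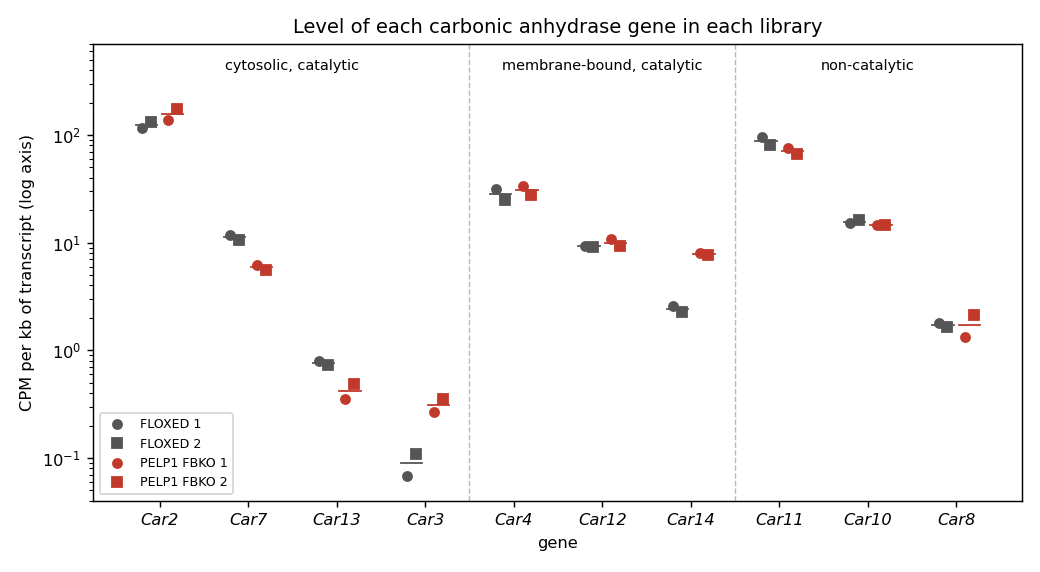
Level of each of the 10 genes in CPM per kb of transcript (log axis) in the 4 libraries, FLOXED in grey and PELP1 FBKO in red, circles for replicate 1 and squares for replicate 2, short lines for group means. Car2 and Car11 lie above all others, and Car14 lies below Car7 in FLOXED and above it in PELP1 FBKO.

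Of the 10 members, 9 passed the filter on low counts and entered the genotype comparison, and Car3 did not. By edgeR's quasi-likelihood test 0 members were past an adjusted p of 0.05 in either direction, as were 0 of the 14978 genes tested (0% higher and 0% lower). With the unadjusted p under 0.05 instead, 1 member (Car14) was on the higher side and 1 (Car7) on the lower, and so were 10.1% and 5.55% of all tested genes. DESeq2 and edgeR's exact test each called the same pair at an adjusted p under 0.05, Car14 higher and Car7 lower. DESeq2 called 2.2% of its genes higher and 0.895% lower, and the exact test 3.75% and 1.32%. Limma-voom called 0 members and 0% of genes. The 2 groups did not overlap in 6 of the 9 tested members, 2 higher and 4 lower, and in 48.4% of all tested genes, 25.4% higher and 23% lower. Of the tested members, 4 had positive and 5 negative log2 fold changes, with a median of -0.0030, and the median of all tested genes was 0.00015.

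Car14, a transmembrane enzyme whose catalytic domain faces the extracellular space, had the smallest p-value of the family and the fifth smallest of all tested genes. Its counts were 77 and 84 reads in FLOXED and 305 and 265 in PELP1 FBKO. The levels were 4.39 and 3.88 CPM in FLOXED and 13.8 and 13.0 CPM in PELP1 FBKO. Replicates lay close together, and the groups were far apart, with a mean of 4.13 ± 0.365 CPM (SD, n = 2) against 13.4 ± 0.600 CPM (SD, n = 2), a ratio of 3.24. The log2 fold change was 1.70 (SE 0.198), with an edgeR quasi-likelihood adjusted p of 0.0501, just short of the threshold. Of all tested genes, 0.474% had a log2 fold change at least as high. The adjusted p was under 0.05 in 10 of 12 alternatives and ranged from 2.2e-08 by the exact test to 0.209 without FLOXED 1. In limma-voom it was 0.0610.

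In the GRCm38 annotation the 3′ end of Car14 overlaps that of Aph1a, which encodes a subunit of gamma-secretase, over 521 bases on the opposite strand. Strand use in counting is not given in the sources used here, so how reads from the shared stretch were assigned is not known. Between 0.972% and 1.05% of uniquely placed reads were set aside as ambiguous and entered no gene. Whether reads from this stretch were among them is not known either. Aph1a had 82 and 100 reads in FLOXED and 135 and 121 in PELP1 FBKO. Its log2 fold change was 0.37 (SE 0.216; edgeR quasi-likelihood, adjusted p = 0.447), smaller than that of Car14. The part of the overlap in the Car14 difference was not tested.

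Car7 encodes a cytosolic enzyme of neurons, known from hippocampal pyramidal cells, where it supplies bicarbonate for GABA receptor currents. It had 398 and 449 reads in FLOXED and 267 and 219 in PELP1 FBKO. The levels were 22.7 and 20.7 CPM in FLOXED against 12.1 and 10.7 CPM in PELP1 FBKO. Both PELP1 FBKO libraries lay well below both FLOXED libraries, with means of 21.7 ± 1.40 CPM (SD, n = 2) and 11.4 ± 0.975 CPM (SD, n = 2), so the FLOXED mean was 1.90 times as high. The log2 fold change was -0.93 (SE 0.167; edgeR quasi-likelihood, adjusted p = 0.0753), and 1.68% of tested genes had one at least as low. The adjusted p was under 0.05 in 6 of 12 alternatives, from 0.00102 by the exact test to 0.266 without FLOXED 1. A ratio within each library needs no scaling between libraries. There were 0.193 and 0.187 Car14 reads per Car7 read in FLOXED, and 1.14 and 1.21 in PELP1 FBKO. Car14 and Car7 are the tested members with the highest and the lowest log2 fold change. Their ratio restates those differences and is not further evidence.

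**Figure D2:**
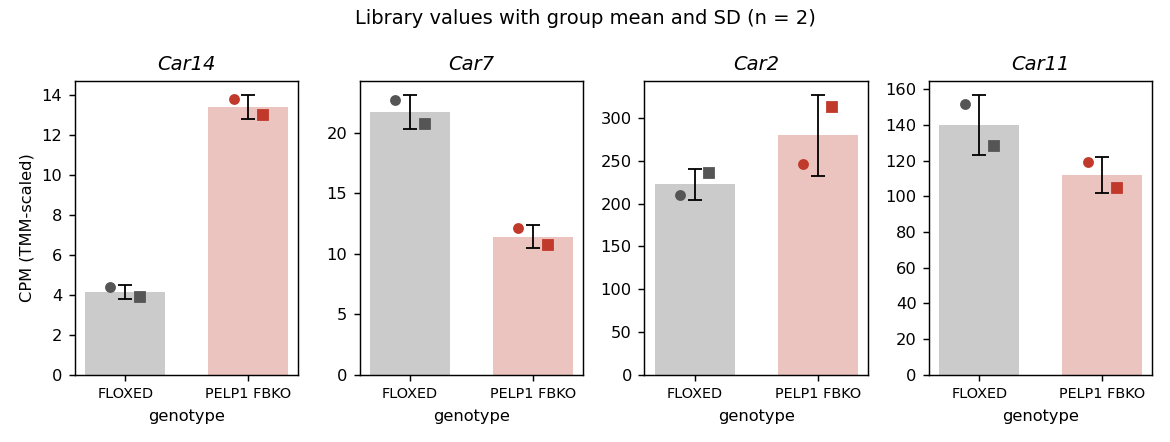
TMM-scaled CPM of Car14, Car7, Car2 and Car11 by genotype, with bars for group means, error bars for the SD (n = 2), circles for replicate 1 and squares for replicate 2. Car14 is at 4.13 against 13.4 CPM and Car7 at 21.7 against 11.4 CPM, while Car2 and Car11 differ less.

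Car2, the highly active cytosolic enzyme of oligodendrocytes and choroid plexus, supplied between 69.1% and 73.5% of the family's reads together with Car11. It had 3674 and 5106 reads in FLOXED and 5433 and 6393 in PELP1 FBKO. Its levels were 210 and 236 CPM in FLOXED and 246 and 313 CPM in PELP1 FBKO. The groups did not overlap, but PELP1 FBKO 1 lay nearer to FLOXED 2 than to PELP1 FBKO 2. The log2 fold change was 0.33 (SE 0.161; edgeR quasi-likelihood, adjusted p = 0.376), and it ranged from 0.15 without PELP1 FBKO 2 to 0.47 without PELP1 FBKO 1. Car2 made up 40.1% and 45.7% of the reads of the 10 genes in FLOXED and 46.5% and 55.0% in PELP1 FBKO.

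The remaining cytosolic members were scarce. Car13, a cytosolic enzyme, had 32 and 36 reads in FLOXED and 18 and 23 in PELP1 FBKO, or 1.82 and 1.66 against 0.816 and 1.13 CPM. Its log2 fold change was -0.84 with a wide error (SE 0.367; edgeR quasi-likelihood, adjusted p = 0.322). Car3, an enzyme of low activity that is abundant in muscle and fat, had 2 and 4 reads in FLOXED and 10 and 12 in PELP1 FBKO. Summed by group, that is 0.152 CPM (95% exact Poisson interval 0.0558 to 0.331) and 0.520 CPM (0.326 to 0.787), unscaled by TMM, and the intervals cover counting error only. These intervals overlap slightly, which is not a test of the difference. In the edgeR quasi-likelihood fit without a count filter, the log2 fold change of Car3 was 1.73 (SE 0.733). Its unadjusted p there was 0.0347 and its adjusted p 0.293. Car2, Car3 and Car13 lie in a cluster on chromosome 3 with Car1, and Car2 and Car3 lay higher in PELP1 FBKO while Car13 lay lower.

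Among the surface enzymes, Car4 and Car12 stood apart from Car14. Car4, which is anchored to the membrane by a lipid and known from the surface of brain capillaries, was at 39.6 and 31.1 CPM in FLOXED, against 42.6 and 34.5 CPM in PELP1 FBKO. The groups overlapped, with a log2 fold change of 0.13 (SE 0.175; edgeR quasi-likelihood, adjusted p = 0.775), which was negative without FLOXED 2 (-0.050) and without PELP1 FBKO 1 (-0.054). Car12, a transmembrane enzyme like Car14, was at 34.8 and 33.6 CPM in FLOXED, against 40.2 and 34.3 CPM in PELP1 FBKO. Here too the groups overlapped, and the log2 fold change was 0.12 (SE 0.146; edgeR quasi-likelihood, adjusted p = 0.732), or -0.015 without PELP1 FBKO 1. Whether Car14 differed from Car4 or Car12 in its response was not tested.

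The non-catalytic members were each close to their FLOXED level or below it. Car11, which encodes a secreted protein, was at 152 and 128 CPM in FLOXED, against 119 and 105 CPM in PELP1 FBKO. Both PELP1 FBKO libraries were lower, by a log2 fold change of -0.32 (SE 0.144; edgeR quasi-likelihood, adjusted p = 0.336), and the size ranged from -0.45 without FLOXED 2 to -0.19 without FLOXED 1. Car10, which encodes the other secreted protein of the family, was at 50.4 and 54.3 CPM in FLOXED, against 48.7 and 48.6 CPM in PELP1 FBKO. Its log2 fold change was -0.11 (SE 0.128; edgeR quasi-likelihood, adjusted p = 0.735), the smallest standard error among the members. Car8, which binds the inositol trisphosphate receptor and is best known from cerebellar Purkinje cells, was at 6.96 and 6.37 CPM in FLOXED, against 5.08 and 8.23 CPM in PELP1 FBKO. The PELP1 FBKO libraries lay on both sides of the FLOXED libraries, and the log2 fold change was -0.0030 (SE 0.267; edgeR quasi-likelihood, adjusted p = 0.996). It was -0.39 without PELP1 FBKO 2 and 0.29 without PELP1 FBKO 1.

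Summed over the 10 genes, the family held 522 and 516 CPM in FLOXED and 529 and 569 CPM in PELP1 FBKO. The genotypes did not overlap in this sum, but they lay closer than in its parts. The 7 catalytic members summed to 313 and 327 CPM in FLOXED and to 356 and 407 CPM in PELP1 FBKO, mostly through Car2. The 3 non-catalytic members summed to 209 and 189 CPM in FLOXED and to 173 and 162 CPM in PELP1 FBKO, mostly through Car11. These sums were not tested.

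**Figure D3:**
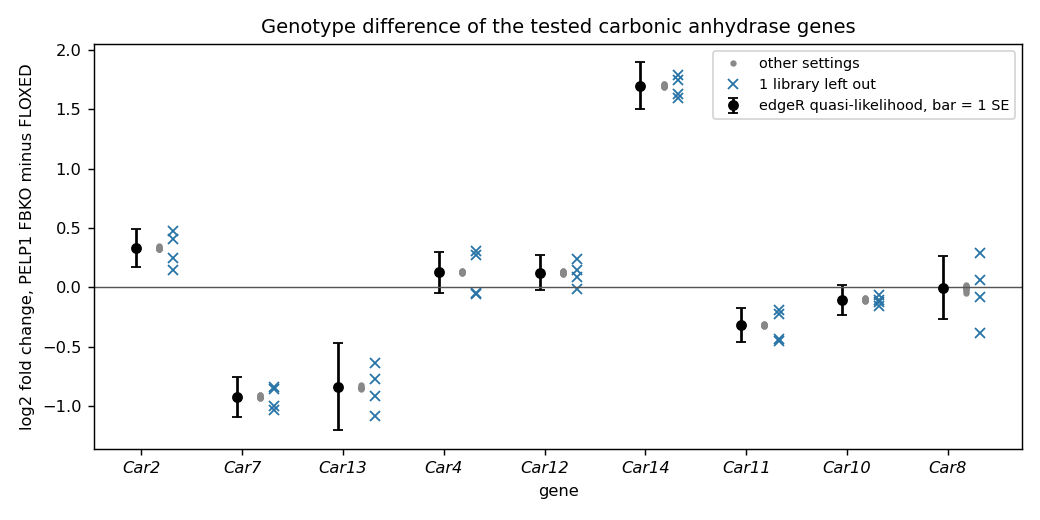
Log2 fold change (PELP1 FBKO minus FLOXED) of the 9 tested members, black points for edgeR's quasi-likelihood fit with bars of 1 SE, grey dots for other settings and blue crosses for fits with 1 library left out. Car14 stays between 1.60 and 1.79 and Car7 between -1.03 and -0.84, while Car4, Car8 and Car12 scatter around 0.

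Many cell type markers differed between the genotypes too, and their part in the results of the family was not tested. All 14 markers of mature oligodendrocytes were positive, with a median of 0.81, and their summed level was 3182 and 4091 CPM in FLOXED against 6317 and 6797 CPM in PELP1 FBKO. That difference was larger than the one of Car2, whose fold change was 0.33. Of 12 astrocyte markers, 12 were positive (median 0.45), with sums of 6369 and 7153 CPM against 8135 and 10062 CPM. Gfap, a large part of these sums, was at 2382 and 2258 CPM in FLOXED, against 1500 and 3882 CPM in PELP1 FBKO. Its PELP1 FBKO libraries thus lay on both sides of those of FLOXED. Single astrocyte markers ranged from a log2 fold change of 0.11 (Aqp4) to 1.13 (Gja1). Choroid plexus markers, another source of Car2, summed to 362 and 109 CPM in FLOXED and to 62.1 and 76.1 CPM in PELP1 FBKO. Ttr alone stood at 324 and 67.5 CPM in FLOXED, against 21.4 and 33.9 CPM in PELP1 FBKO. Of 8 tested choroid plexus markers 5 were positive and 3 negative. Like Ttr, the untested markers Kcne2 and Slc4a5 were highest in FLOXED 1. Kcne2 had 30 and 5 reads in FLOXED and 2 and 7 in PELP1 FBKO, and Slc4a5 had 18 and 3 against 5 and 3. Otx2, also untested, was highest in PELP1 FBKO 2, with 46 reads. The high choroid plexus sum of FLOXED is thus mainly that of 1 library. Red blood cells hold Car2 as well. The 6 erythroid markers summed to 3.08 and 4.52 CPM in FLOXED, against 8.30 and 8.08 CPM in PELP1 FBKO, apart in the same direction as Car2. Nearly all of this sum was Alas2, at 2.97 and 4.47 CPM in FLOXED, against 8.07 and 8.03 CPM in PELP1 FBKO. Slc4a1 had between 1 and 5 reads a library, and its groups overlapped. The 1 tested marker of this list was Alas2, the heme synthesis gene of red cell precursors, with 52 and 97 reads in FLOXED and 178 and 164 in PELP1 FBKO and a log2 fold change of 1.10 (SE 0.255; edgeR quasi-likelihood, adjusted p = 0.109, unadjusted p = 0.0025). Of the list, 4 markers, the globin genes Hba-a1, Hba-a2, Hbb-b1 and Hbb-b2, were at 0 reads in every library. Globin genes have near-identical copies, and reads without a unique place were not counted, but the cause of these zeros was not tested.

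For the neuronal member Car7, the nearest marker lists are those of excitatory and CA1 pyramidal neurons. The 6 excitatory markers summed to 9176 and 9226 CPM in FLOXED and to 9275 and 6839 CPM in PELP1 FBKO, with 5 negative and a median log2 fold change of -0.35. The sum of PELP1 FBKO 1 was carried by Camk2a, at 4607 CPM against 3561 and 3932 CPM in FLOXED. In that library Hpca, Nrgn and Neurod6 lay below both FLOXED libraries, and Neurod2 only just, at 208.4 CPM against 209.1 and 247.6 CPM. Slc17a7 lay between the FLOXED libraries there, at 1590 CPM against 1611 and 1573 CPM. The 6 CA1 markers, all negative with a median of -0.74, summed to 467 and 560 CPM in FLOXED and to 335 and 289 CPM in PELP1 FBKO. Interneuron markers went the other way, with sums of 1082 and 1030 CPM against 1342 and 1408 CPM, and 7 of 8 positive. Of the remaining lists, 5 of 6 dentate granule, 6 of 6 mural cell, 8 of 8 microglia and 7 of 8 meningeal fibroblast markers were positive. Endothelial markers, the cells known for Car4, summed to 285 and 368 CPM in FLOXED and to 441 and 421 CPM in PELP1 FBKO, with 10 of 10 positive (median 0.37). Muscle and fat markers, beside Car3, summed to 12.9 and 8.30 CPM in FLOXED and to 6.48 and 7.30 CPM in PELP1 FBKO, with Cfd at 0 reads. No marker of these lists passed an adjusted p of 0.05 by edgeR's quasi-likelihood test, and counts at an unadjusted p under 0.05 stand beside 10.1% of all tested genes higher and 5.55% lower. On the higher side were 12 of 14 oligodendrocyte, 6 of 12 astrocyte, 4 of 10 endothelial, 4 of 8 interneuron, 4 of 8 meningeal, 3 of 6 dentate granule, 3 of 6 mural cell and 2 of 8 microglia markers. On the lower side were 5 of 6 CA1 and 2 of 6 excitatory markers, 1 choroid plexus marker (Ttr) and 1 muscle marker (Acta1).

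**Figure D4:**
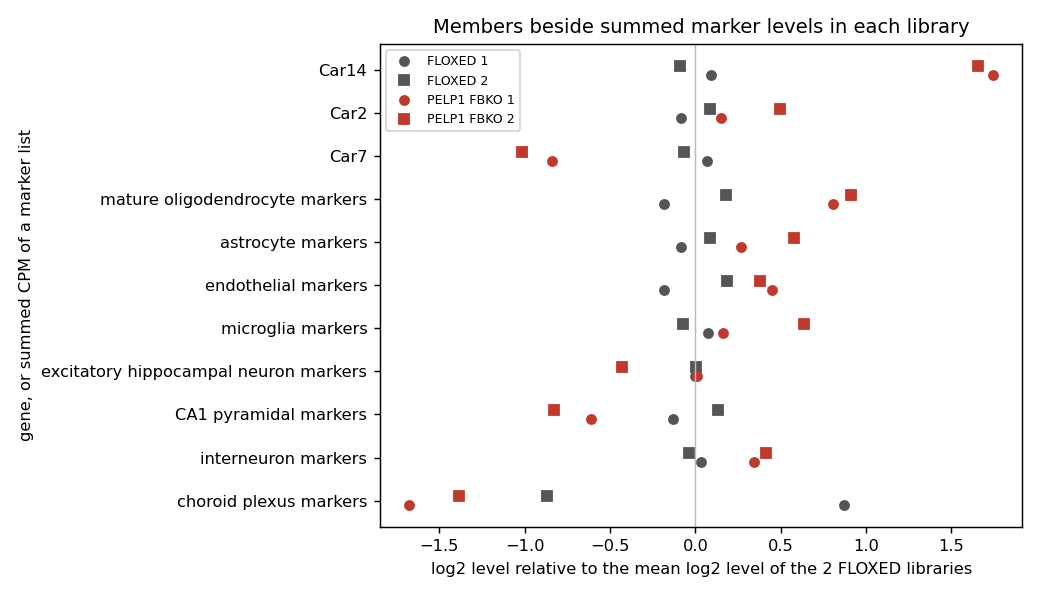
Log2 level of Car14, Car2 and Car7 and of the summed CPM of 8 marker lists in each library, relative to the mean log2 level of the FLOXED libraries, colours and symbols by library. Car14 lies to the right and Car7 to the left in both PELP1 FBKO libraries. The CA1 and choroid plexus sums also lie to the left in both. The choroid plexus sum follows 1 gene, Ttr, at 324 and 67.5 CPM in FLOXED, against 21.4 and 33.9 CPM in PELP1 FBKO. Of the 8 tested markers of that list, 5 were positive and 3 negative.

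Other genes of the family and of acid-base handling were taken from lists chosen with earlier results of these data known. Of the family genes outside the 10, Car5b, Car9, Car15, Ptprg and Ptprz1 were tested, with 4 positive, 1 negative and 0 past an adjusted p of 0.05. Of these, 2 were higher at an unadjusted p under 0.05, Ptprz1 and Car9, beside 10.1% of all tested genes. Ptprz1, a receptor phosphatase of glia with a carbonic anhydrase-like domain, had a log2 fold change of 0.53 (SE 0.161; edgeR quasi-likelihood, adjusted p = 0.178). Car9, a hypoxia-induced surface enzyme, had 9 and 14 reads in FLOXED and 22 and 37 in PELP1 FBKO. It differed by 1.25 on the log2 scale (SE 0.467; edgeR quasi-likelihood, adjusted p = 0.256). Car1, Car5a and Car6 had between 0 and 9 reads a library and were not tested.

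Of 10 bicarbonate transporter genes 7 were tested, 4 positive and 3 negative, with a median log2 fold change of 0.10. With the unadjusted p, 2 higher and 1 lower were under 0.05, beside 10.1% and 5.55% of all tested genes, and 0 passed the adjusted threshold. Slc4a4, the sodium-bicarbonate cotransporter of astrocytes, measured 119 and 144 CPM in FLOXED, against 234 and 207 CPM in PELP1 FBKO. Its log2 fold change was 0.74 (SE 0.149; edgeR quasi-likelihood, adjusted p = 0.0864), the smallest p of that list. The anion exchanger gene Slc4a2 had 0.48 (SE 0.138; adjusted p = 0.163) and the sodium-bicarbonate cotransporter gene Slc4a7 had -0.31 (SE 0.124; adjusted p = 0.282), both by edgeR.

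Sodium-proton exchanger genes and their scaffold genes showed little, with 8 of 10 positive, a median of 0.11 and 0 at an unadjusted p under 0.05. Of 6 lactate and proton cotransport genes 4 were negative (median -0.23). At an unadjusted p under 0.05, 1 of the 6 was lower, beside 5.55% of all tested genes. It was Slc16a3, a lactate exporter, with -0.94 (SE 0.311; edgeR quasi-likelihood, adjusted p = 0.208). Among 10 acid-sensing genes the median was 0.03. At an unadjusted p under 0.05, 1 of the 10 was higher, near the 10.1% of all tested genes. It was Accn4, an older symbol for a member of the acid-sensing channel family, with 0.58 (SE 0.235; edgeR quasi-likelihood, adjusted p = 0.289). Itpr1, whose product is bound by that of Car8, had a log2 fold change of 0.12 (SE 0.226; edgeR quasi-likelihood, adjusted p = 0.839). The related receptor gene Itpr3 had 0.89 (SE 0.238; edgeR quasi-likelihood, adjusted p = 0.142). Chloride, potassium and water transport genes had 7 of 8 positive (median 0.28) and 3 higher at an unadjusted p under 0.05, beside 10.1% of all tested genes. They were the astrocytic potassium channel genes Kcnj10 (0.65, SE 0.148) and Kcnj16 (0.51, SE 0.138) and the chloride importer gene Slc12a2 (0.77, SE 0.183), with edgeR adjusted p-values of 0.107, 0.147 and 0.116. Slc12a5, the neuronal chloride exporter that acts with Car7 on GABA responses, had 0.21 (SE 0.192; edgeR quasi-likelihood, adjusted p = 0.646).

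The genes with the profile most like Car14 across the 4 libraries were sought among 10275 genes with a mean of at least 10 CPM, by the root mean square difference of centred log2 levels. They were Lag3 (0.0975), Klhdc7a (0.210) and Id4 (0.213). Lag3, an immune checkpoint receptor gene, was at 5.65 and 4.29 CPM in FLOXED, against 14.9 and 15.4 CPM in PELP1 FBKO. For Car2 the nearest were Pdlim5 (0.0169), Rftn1 (0.0251) and Prcp (0.0259), each lowest in FLOXED 1 and highest in PELP1 FBKO 2. With 4 libraries many genes share such a profile, so these names are a description only.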

How the data were processed

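The authors deposited raw read counts per gene symbol, without normalization, as the whole numbers and unequal totals show. Libraries were 50-base single reads made with a TruSeq RNA kit, per the labels' protocols. Reads were handled with TopHat2 2.0.8b, CASAVA 1.8.2 and HTSeq on the mm9 build, per the submitters' processing notes, while the series text names a human build. The sources used here give neither strand settings nor an annotation. Summary lines stayed out of all totals. Of uniquely placed reads, between 14.7% and 15.7% lay in no gene.

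The 4 libraries were grouped by their genotype label. The main test was edgeR 4.0.16 (R 4.3.3) with TMM, filterByExpr and a genotype term tested by quasi-likelihood, Benjamini-Hochberg adjusted over all 14978 genes, at a threshold of 0.05. Standard errors came from the F statistic. DESeq2 1.42.0, limma-voom (limma 3.58.1), edgeR's exact test, other scalings and filters, a replicate block and leaving out each library were alternatives. The code was tested on simulated data. A count of 0 allows up to 0.171 CPM in the shallowest library (3 reads, counting error only). Transcript lengths came from GENCODE vM21 on GRCm38, which is not the build of the files. The promoter positions, the overlap of Car14 with Aph1a and the chromosome 3 cluster are those of GRCm38, not of the counting.

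Named genes are the 10 members, Pelp1, the genes overlapping a member, the up to 3 smallest p-values of each pathway list, and the 3 genes most like Car14 and Car2. Other genes were chosen after their values were seen. Some genes on the list of partners of the non-catalytic members are not reported here. The members and lists were chosen with earlier results of these data known.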

Additional observations from a re-analysis of the deposited data

How the results depend on the processing

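Car14 was higher and Car7 lower in PELP1 FBKO under all 12 alternatives tried for each, and Car2, Car10, Car11 and Car13 also kept their direction in theirs. The log2 fold change of Car4 ranged from -0.054 without PELP1 FBKO 1 to 0.31 without FLOXED 1, and was -0.050 without FLOXED 2. That of Car12 ranged from -0.015 without PELP1 FBKO 1 to 0.24 without PELP1 FBKO 2. That of Car8 ranged from -0.39 without PELP1 FBKO 2 to 0.29 without PELP1 FBKO 1, with 0.060 without FLOXED 1, 0.017 with library totals and 0.011 with a minimum of 50 reads in each library. The cause was not tested. The count of members past the threshold, 0 higher and 0 lower by edgeR's quasi-likelihood test, became 1 higher (Car14) with DESeq2, the exact test, RLE size factors, library totals, no count filter and a minimum of 50 reads in each library, and 1 lower (Car7) with DESeq2, the exact test and no count filter. At an unadjusted p under 0.05 it was 1 and 1. Leaving out 1 library gave 0 to 1 higher and 0 to 1 lower, with 0 and 0 without FLOXED 1.

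Over all genes, the counts higher and lower, 0 and 0 by the quasi-likelihood test, were 319 and 130 with DESeq2, 562 and 197 with the exact test, 13 and 4 with RLE size factors, 20 and 3 with library totals, 278 and 81 with no count filter, 39 and 4 with a minimum of 50 reads in each library, and 1509 and 832 at an unadjusted p under 0.05. They ranged from 0 to 457 higher and from 0 to 324 lower when 1 library was left out. Libraries of the 2 genotypes share replicate numbers but nothing says that they are paired, and deviations of same-numbered libraries correlated at -0.226 across 10761 genes. With the replicate block, 1 member was higher and 1 lower, and 387 and 179 of all genes. Crossing the numbers, chosen after seeing the data, gave 1 and 1 members and 223 and 91 genes.

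The order of the 10 mean levels per kilobase stayed the same with exon union lengths and with library totals. Whether neighbours stayed apart in single libraries under these settings was not examined. With exon union lengths the level of Car12 was 4.70 and that of Car7 4.55. Depth limits Car3 and Car13, the scarcest members, with 28 and 109 reads in all.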
